A study of Mus musculus with 21 samples.

Results

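The ileum was compared with the colon in CDX2-VDR transgenic mice that had received no treatment, from 3 ileum and 4 colon libraries out of 21 samples in the series. The libraries were chosen by tissue and group alone, and the 2 deposited tables that hold them were joined by gene symbol. Of 21441 genes in the tables, 12389 had a mean of at least 1 FPKM (fragments per kilobase of transcript and of library size) over the 7 libraries and were tested.

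Per the labels, the transgenic animals lacked their own vitamin D receptor (VDR) and carried human VDR in the distal intestine, on a C57BL6J background, and their tissue was intestinal epithelium. The ileum samples came from 2 females aged 9 weeks and 1 male aged 10 weeks, and the colon samples from 3 females aged 9 weeks and 1 male aged 10 weeks. Both tissues therefore carry the same transgene and the same loss of endogenous VDR, and no wild-type ileum or colon was analysed here. Where a comparison is made with KO, this means 4 ileum and 4 colon libraries of untreated male Villin-CreERT2 VDR f/f mice of the same background, aged 9 or 11 weeks. In those mice a Cre recombinase driven by the villin promoter acts in the intestinal epithelium. For the colon the series' design text gives 3 uninjected libraries, but labels and columns both give 4, and these were used. The columns of the ileum are numbered 1, 3 and 4 and cannot be tied to single samples, so sex and age are known for the ileum only as a group. No label identifies an animal, so the spread behind each p-value is that among libraries and may be technical.

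The ileum is the segment that takes bile acids and cobalamin back from the gut lumen, and its villi still carry the hydrolases and transporters that finish the digestion of sugar, fat and protein. The colon absorbs sodium and water, exchanges chloride for bicarbonate, and uses short-chain fatty acids from bacteria as fuel. Position along the gut is held by Hox genes and by factors such as CDX2, GATA and HNF4 proteins. Paneth cells at the base of small intestinal crypts secrete antimicrobial peptides and are normally missing from the colon.

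The promoters of 4 genes that differed between the tissues, 2 in each direction, are shown first, to let the letters be read beside the levels. The genes were chosen after their values were seen. Sis and Fabp6 were higher in the ileum, and Hao2 and Aqp8 were lower. Each run is the 250 bases before the start of transcription in RefSeq on GRCm38.p6, on the strand of the gene. Capitals mark 3 short words and their reverse complements. They are TTTATG, bound by CDX proteins, GTTAAT, one arm of the HNF1 motif, and CAAAGT, one arm of the HNF4 motif.
Sis (chr3:72967864-72968113, minus strand): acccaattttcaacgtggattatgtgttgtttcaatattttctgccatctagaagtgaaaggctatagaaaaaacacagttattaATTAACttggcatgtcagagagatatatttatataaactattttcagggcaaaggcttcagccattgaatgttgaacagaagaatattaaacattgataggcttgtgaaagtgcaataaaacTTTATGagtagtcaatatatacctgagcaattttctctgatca
Fabp6 (chr11:43601563-43601812, minus strand): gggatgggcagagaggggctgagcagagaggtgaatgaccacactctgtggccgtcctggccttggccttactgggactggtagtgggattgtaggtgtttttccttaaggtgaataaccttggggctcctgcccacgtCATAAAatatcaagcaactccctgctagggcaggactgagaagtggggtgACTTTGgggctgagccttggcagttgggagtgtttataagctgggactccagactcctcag
Hao2 (chr3:98893231-98893480, minus strand): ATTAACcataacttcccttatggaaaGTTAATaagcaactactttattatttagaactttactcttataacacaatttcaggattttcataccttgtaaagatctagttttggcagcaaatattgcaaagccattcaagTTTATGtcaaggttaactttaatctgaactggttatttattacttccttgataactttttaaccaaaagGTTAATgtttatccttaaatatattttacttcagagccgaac
Aqp8 (chr7:123462044-123462293, plus strand): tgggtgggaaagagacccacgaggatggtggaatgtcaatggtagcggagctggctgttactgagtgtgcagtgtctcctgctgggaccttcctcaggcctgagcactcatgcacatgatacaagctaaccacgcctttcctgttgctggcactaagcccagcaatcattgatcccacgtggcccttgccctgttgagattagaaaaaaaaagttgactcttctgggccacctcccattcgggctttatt

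The Sis promoter held the CDX word 43 bases before the start and the HNF1 word 165 bases before it. Fabp6 held the CDX word at 111 bases and the HNF4 word at 61 bases. Hao2, a gene of the other direction, held the CDX word at 111 bases and the HNF1 word at 42, 224 and 250 bases. Aqp8 held none of the 3 words in this window, which says nothing of the factors. Over all 32851 promoters of the table, 10.8% held the CDX word, 6.43% the HNF1 word and 12.6% the HNF4 word in the same 250 bases. A match describes letters and is not a site.

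Depth, recovered from the smallest increments of FPKM, was at least 12066465 to 37322556 reads in the ileum libraries and at least 10380566 to 43184186 reads in the colon libraries. The ileum libraries correlated with each other at 0.872 to 0.944, the colon libraries at 0.814 to 0.959, and libraries of different tissues at 0.747 to 0.873 over genes on the log2 scale. The first principal component held 37.4% of the variance and separated the tissues, and the second held 27.6% and ran within them. Colon library 3 stood apart by pancreatic acinar transcripts: the summed level of 22 such genes was 134056 FPKM there, against 105 to 731 FPKM in the other colon libraries and 15.4 to 1115 FPKM in the ileum. It also held more of several ileal transcripts than the other colon libraries, given beside those genes below. Ddx3y, on the Y chromosome, was at 0.0383, 2.58 and 9.72 FPKM in ileum libraries 1, 3 and 4 and at 0.0919, 0.194, 10.8 and 13.9 FPKM in colon libraries 1 to 4, so that colon library 3 goes against its label of female. It exceeded 1 FPKM in 2 ileum libraries, where the labels give 1 male. Car1 and Aqp8, genes of the colon, were in colon library 3 at levels within the range of the other colon libraries. Of the other genes of colonocyte transport with values below, Slc26a3, Slc9a3, Scnn1a, Hsd11b2, Atp12a, Car2 and Car4 were lowest there among colon libraries. Best2 and Scnn1b were not.

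All levels are FPKM after rescaling each library by the median ratio to the others, in the order of ileum libraries 1, 3 and 4 and colon libraries 1 to 4. Differences are ileum minus colon on the scale of log2(FPKM + 0.5), from limma with adjustment over all genes tested, with a threshold of 0.05. The offset understates the difference of low genes. In simulated data most changes by a factor of 4 or less were missed, so a gene that did not pass is not shown to be equal. In bulk tissue, fewer cells of a type and less RNA per cell cannot be told apart.

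A total of 685 genes (5.53%) passed the threshold. Of these, 470 were higher in the ileum, which is 3.79% of the genes tested, and 215 were lower, which is 1.74%. The smallest difference among them was 2.37-fold and the median 6.31-fold, and 537 of the 685 exceeded 4-fold. The median difference over all genes was -0.01. Without rescaling it was -0.24, and 68.6% of the called genes were higher in the ileum with rescaling and 56.8% without it (372 higher and 283 lower). Many more genes had levels that did not overlap between the tissues: 1064 lay above the colon range (8.59%) and 711 below it (5.74%). Counts within the gene lists below are to be read beside these shares.

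The genes furthest above the colon were ileal absorption genes and alpha-defensins. Fabp6, the bile acid binding protein of the ileal enterocyte (chr11:43409551-43415042, mm9), had 41061, 15671 and 16383 FPKM in the ileum, against 183, 69.5, 876 and 70.1 FPKM in the colon (log2 difference 7.03, SE 0.853, adjusted p = 0.00137). The lowest ileum library was above every colon library, which the choice of the 12 genes required, and colon library 3 was the highest of the colon. Anpep, the brush border aminopeptidase N, had 3746, 3991 and 1819 FPKM in the ileum and 52.9, 11.1, 44.7 and 8.62 FPKM in the colon (log2 difference 7.07, SE 0.675, adjusted p = 0.000367). Apoa1, an apolipoprotein of chylomicrons and HDL, had 10046, 37521 and 4538 FPKM in the ileum and 147, 60.3, 686 and 17.4 FPKM in the colon (log2 difference 6.87, SE 1.13, adjusted p = 0.00652). Npc1l1, the cholesterol importer that ezetimibe inhibits, had 173, 546 and 165 FPKM in the ileum and 2.68, 0.839, 4.35 and 0.913 FPKM in the colon (log2 difference 6.75, SE 0.59, adjusted p = 0.000283). The galectin gene Lgals2 (log2 difference 6.57, adjusted p = 0.00033) and the BCL2-like gene Bcl2l15 (6.83, adjusted p = 0.000214) completed the non-defensin genes of the 12. The other 6 of the 12, Defa-rs7, Gm15308, Gm15315, Gm14850, Gm15284 and Defa22, belong to the alpha-defensin cluster on chromosome 8 and are described with the Paneth cell genes.

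The genes furthest below the colon included 2 that were listed at 0 in every ileum library. Aqp8, a water channel of the surface colonocyte (chr7:130605808-130611517, mm9), was listed at 0 in all 3 ileum libraries and had 264, 196, 139 and 78.3 FPKM in the colon (log2 difference -8.27, SE 0.431, adjusted p = 5.89e-05). Insl5, the insulin-like peptide of colonic L cells, was likewise listed at 0 in all 3 ileum libraries and had 255, 212, 75.8 and 42.6 FPKM in the colon (log2 difference -7.85, SE 0.594, adjusted p = 0.000214). Car1, carbonic anhydrase 1, had 43.5, 37.6 and 7.31 FPKM in the ileum and 5756, 1356, 4586 and 8413 FPKM in the colon (log2 difference -7.47, SE 0.755, adjusted p = 0.00046). Hao2, a peroxisomal hydroxyacid oxidase, had 1.52, 0.452 and 0.269 FPKM in the ileum and 138, 173, 114 and 213 FPKM in the colon (log2 difference -7.10, SE 0.421, adjusted p = 6.99e-05). For these 4 genes colon library 3 lay above every ileum library, which the choice of the genes required. Hoxb13, the most posterior gene of the HoxB cluster (chr11:96055630-96058761, mm9), had 0.145, 0.445 and 0.156 FPKM in the ileum and 429, 242, 61.3 and 37.8 FPKM in the colon (log2 difference -7.41, SE 0.76, adjusted p = 0.000498). The transglutaminase Tgm3 (-7.11, adjusted p = 0.000437), the secreted inhibitor-like Wfdc2 (-6.96, adjusted p = 0.000498), Cyp2d34 (-6.74, adjusted p = 0.000283), the matricellular Nov (-6.71, adjusted p = 0.000283) and 1810030J14Rik (-6.05, adjusted p = 0.0114) were lower in the ileum as well. Sycn, the zymogen granule protein syncollin, had 0.831, 28.5 and 1.24 FPKM in the ileum and 786, 1055, 3741 and 178 FPKM in the colon (log2 difference -7.73, SE 1.18, adjusted p = 0.00428). Its level was highest in the colon library rich in acinar transcripts, and without that library and ileum library 3 its call held. The calcium channel gene Trpv6, the last of the 12, is described with the vitamin D genes.

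**Figure D1:**
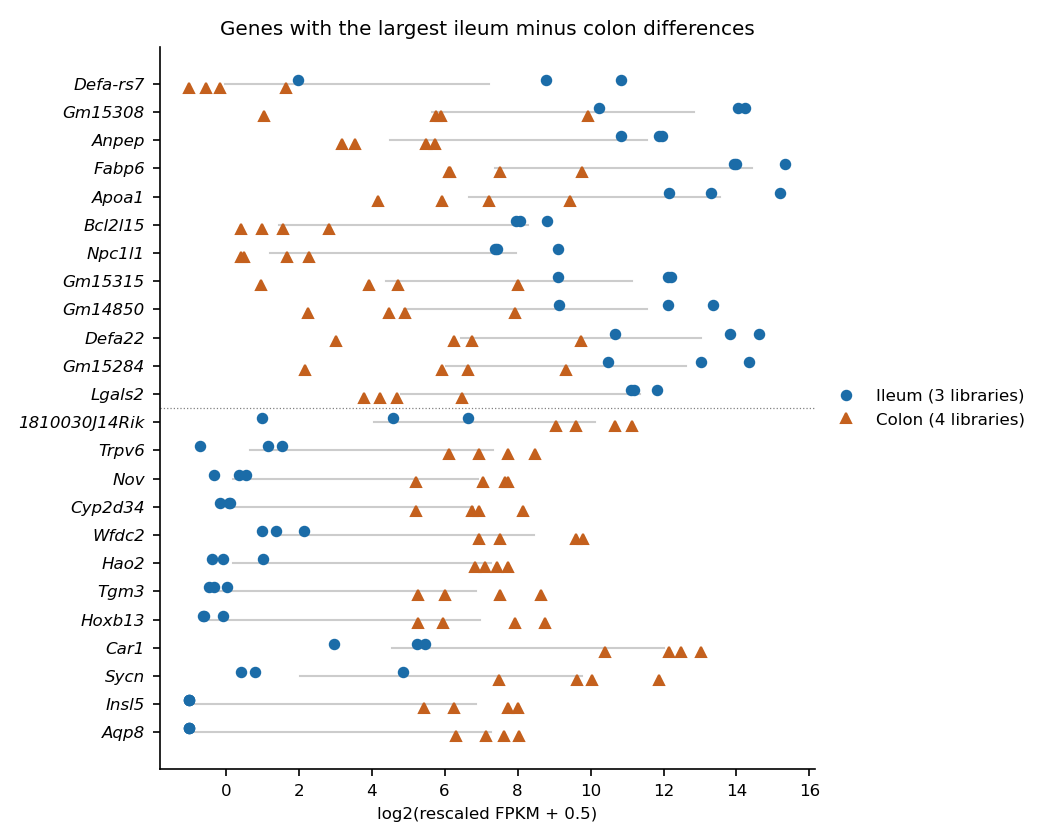
Levels of the 12 genes with the largest positive and the 12 with the largest negative ileum minus colon difference, by library (x axis, log2(rescaled FPKM + 0.5)). Circles are the 3 ileum libraries, triangles the 4 colon libraries, and grey lines join the group means. The libraries of the 2 tissues do not overlap for any of these genes, which the choice of the genes required, and Aqp8 and Insl5 sit at 0 FPKM in all 3 ileum libraries.

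Most genes of bile acid handling were higher in the ileum. Of 8 genes tested for the uptake of bile acids and its feedback, 5 were higher in the ileum and none lower, with a median log2 difference of 3.22. Osta, a subunit of the basolateral bile acid exporter, had 1578, 1663 and 649 FPKM in the ileum and 93.6, 9.53, 55.5 and 56.3 FPKM in the colon (log2 difference 4.84, SE 0.725, adjusted p = 0.00384). Its partner Ostb had 1952, 1397 and 994 FPKM in the ileum and 118, 81.5, 207 and 135 FPKM in the colon (log2 difference 3.44, SE 0.433, adjusted p = 0.00173). Fgf15, the hormone by which the ileum restrains bile acid synthesis in the liver, had 47.5, 14.3 and 18.9 FPKM in the ileum and 0.412, 0.0268, 0.183 and 0.063 FPKM in the colon (log2 difference 5.19, SE 0.471, adjusted p = 0.000308). Abcc2, an apical conjugate exporter, was also higher (log2 difference 3.00, SE 0.741, adjusted p = 0.0467). Slc10a2, the apical sodium-dependent bile acid importer, had 307, 17.3 and 126 FPKM in the ileum and 13.4, 1.95, 23.1 and 46.1 FPKM in the colon, with ileum library 3 inside the colon range, and did not pass (log2 difference 2.67, SE 1.1, adjusted p = 0.283). Nr1h4, the bile acid receptor FXR, had 164, 44 and 98.5 FPKM in the ileum and 42.3, 31, 36 and 58.9 FPKM in the colon and did not pass (adjusted p = 0.299). Neither did Abcc3, a basolateral exporter (log2 difference -0.39, adjusted p = 0.937). Without 1 library in turn, the call was lost for Abcc2 without ileum 1 or 4 or colon 1, 2, 3 or 4 (adjusted p = 0.0665 to 0.208).

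Of 7 genes of cobalamin uptake 3 were higher in the ileum and none lower. Amn, which with Cubn forms the receptor for intrinsic factor, had 345, 802 and 115 FPKM in the ileum and 25.9, 5.61, 17.9 and 6.35 FPKM in the colon (log2 difference 4.73, SE 0.722, adjusted p = 0.00423). Cubn had 49.5, 3.05 and 15.3 FPKM in the ileum and 1.12, 0.101, 1.13 and 1.38 FPKM in the colon (log2 difference 3.42, SE 0.801, adjusted p = 0.0362). Tcn2, the plasma carrier transcobalamin, had 245, 641 and 155 FPKM in the ileum and 101, 68.4, 39 and 49.1 FPKM in the colon (log2 difference 2.25, SE 0.536, adjusted p = 0.0386). The other 4 did not pass, and the median of the list was 0.07. A member passed as lower under several alternatives. Without rescaling 1 was higher and 1 lower (median -0.11), and with all 15 libraries in 1 fit 3 were higher and 1 lower. Leaving out 1 library ended the call for Tcn2 without ileum 1 or 3 or colon 2, 3 or 4 (adjusted p = 0.0766 to 0.107) and for Cubn without ileum 1 or 4 or colon 1, 2 or 3 (adjusted p = 0.0612 to 0.134), and for Tcn2 also with the library number as a block (adjusted p = 0.0827).

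Digestion and absorption of fat, sugar and protein were higher in the ileum across most of the genes listed. Of 19 genes of fat absorption and lipoproteins, 11 were higher and none lower (median 3.44). Mttp, which loads lipid onto apolipoprotein B, had 193, 176 and 308 FPKM in the ileum and 2.87, 1.65, 5.68 and 1.99 FPKM in the colon (log2 difference 6.08, SE 0.435, adjusted p = 0.000166). Mogat2, an acyltransferase that rebuilds triglyceride, had 245, 709 and 180.1 FPKM in the ileum and 6.91, 2.45, 7.84 and 2.92 FPKM in the colon (log2 difference 5.98, SE 0.566, adjusted p = 0.000367). All 3 ileum libraries lay far above all 4 colon libraries for both genes. The sterol exporters Abcg5 (5.16, adjusted p = 0.000214) and Abcg8 (4.79, adjusted p = 0.000623) and the acyltransferase Dgat1 (3.87, adjusted p = 0.00216) were higher too.

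Among 18 brush border hydrolases, 14 were higher in the ileum and none lower, with a median log2 difference of 4.04. The peptidases Xpnpep2, at 195, 258 and 100.4 FPKM in the ileum and 3.9, 1.57, 3.95 and 2.54 FPKM in the colon (log2 difference 5.69, SE 0.439, adjusted p = 0.000214), and Naaladl1, at 1493, 2633 and 939 FPKM and 46.5, 9.06, 36 and 25.7 FPKM (log2 difference 5.92, SE 0.587, adjusted p = 0.000434) were higher, as was Anpep. Treh, which splits trehalose (5.71, adjusted p = 0.00105), Ace, angiotensin-converting enzyme (3.95, adjusted p = 0.00116), and Alpi, intestinal alkaline phosphatase (3.85, adjusted p = 0.00207), were higher. Sis, sucrase-isomaltase, whose promoter is shown above and which was chosen after its values were seen, had 296, 53.6 and 329 FPKM in the ileum and 1.12, 0.51, 9.08 and 4.74 FPKM in the colon (log2 difference 5.86, SE 0.863, adjusted p = 0.00348). Ileum library 3 was the lowest of the ileum and lay above the highest colon library. Lct, lactase, also chosen after its values were seen, had 0.754, 42.2 and 3.25 FPKM in the ileum and 0.273, 0.289, 0.279 and 0.0475 FPKM in the colon, without overlap, and did not pass (log2 difference 3.03, SE 0.976, adjusted p = 0.131). Of all genes tested, 8.59% lay above the colon range.

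Sugar carriers were mostly higher in the ileum, with 1 exception. Of 11 genes, 8 were higher in the ileum and 1 lower (median 3.67). Slc5a1, the sodium-glucose cotransporter SGLT1, had 589, 358 and 468 FPKM in the ileum and 46.7, 33.4, 22.9 and 46 FPKM in the colon (log2 difference 3.67, SE 0.386, adjusted p = 0.00059). Slc2a5, the fructose transporter GLUT5, had 37.1, 24.9 and 28.3 FPKM in the ileum and 3.06, 0.834, 0.744 and 2.13 FPKM in the colon (log2 difference 3.93, SE 0.446, adjusted p = 0.000907). The SGLT relatives Slc5a4a (4.12, adjusted p = 0.000406) and Slc5a4b (3.96, adjusted p = 0.00258) were higher. The gene that went the other way was Slc2a1, the glucose transporter GLUT1, at 14.1, 25.1 and 10.6 FPKM in the ileum and 132, 80.8, 63 and 67.5 FPKM in the colon (log2 difference -2.36, SE 0.417, adjusted p = 0.00938). It was named after its values were seen, as the single lower member.

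Of 16 carriers of amino acids and peptides, 11 were higher in the ileum and none lower (median 2.61). Slc6a19, the main carrier of neutral amino acids, had 88.1, 69.1 and 164 FPKM in the ileum and 1.95, 0.127, 2.01 and 0.881 FPKM in the colon (log2 difference 6.05, SE 0.543, adjusted p = 0.000288). The tissues did not overlap for this gene. Slc43a2 (4.90, adjusted p = 0.000213), the cystine carrier Slc7a9 (5.34, adjusted p = 0.000394), the proline carrier Slc6a20a (4.35, adjusted p = 0.00227) and Slc7a8 (2.65, adjusted p = 0.00429) were higher.

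**Figure D2:**
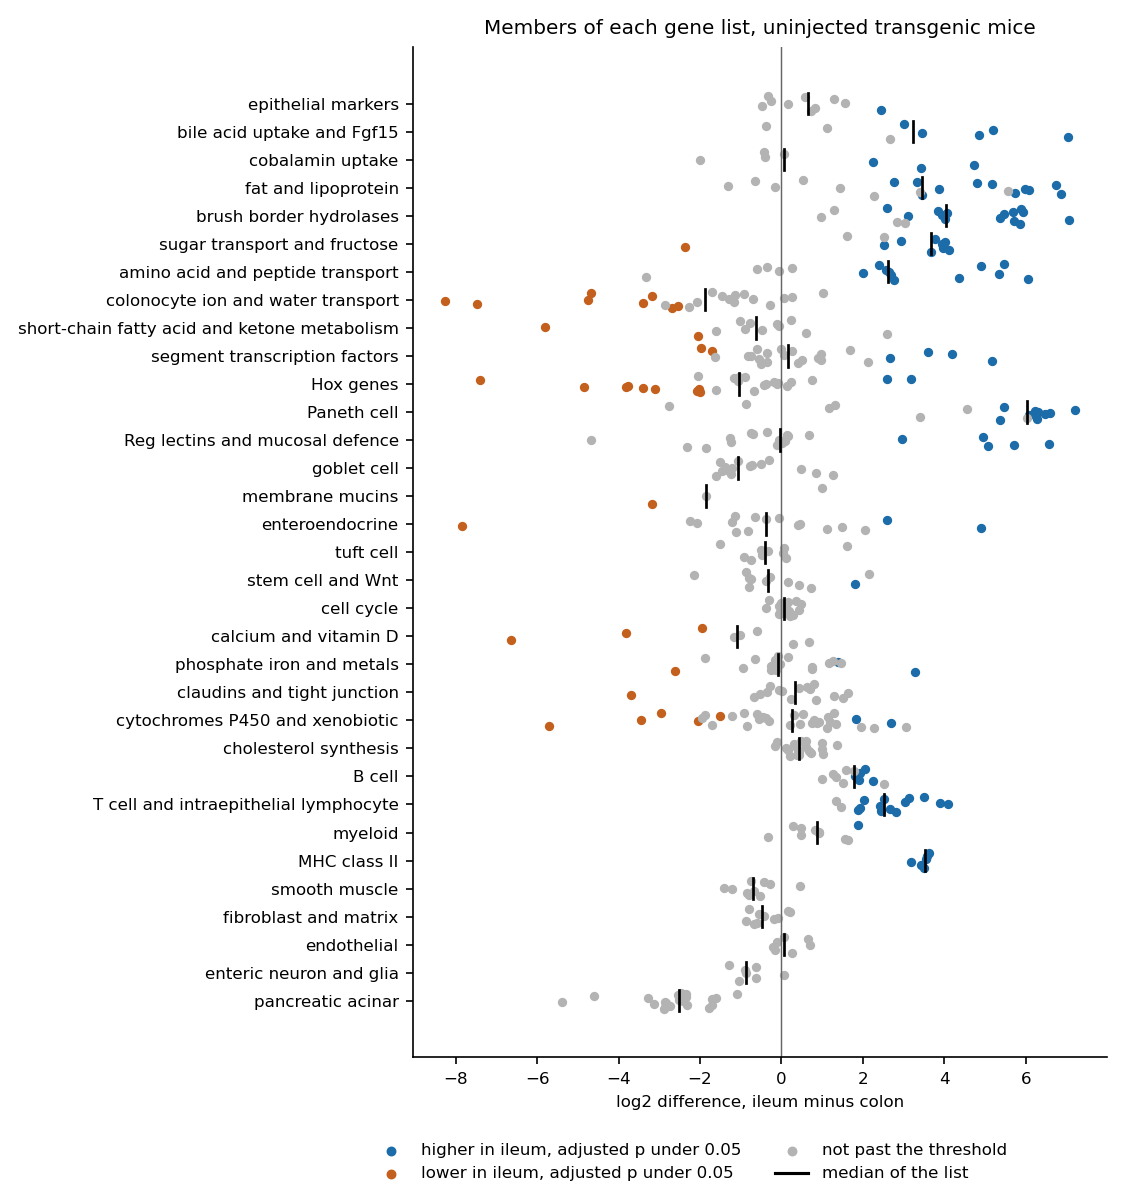
Log2 difference, ileum minus colon (x axis), of every tested member of the gene lists (rows). Blue points were higher and orange points lower in the ileum at an adjusted p under 0.05, grey points did not pass, and black bars are the list medians. Bars of the nutrient lists from bile acids to amino acids lie between 0.07 and 4.04, that of colonocyte transport at -1.89.

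Several genes of ion and water transport in colonocytes were lower in the ileum. Of 22 genes tested, 8 were lower in the ileum and none higher (median -1.89), with Aqp8 and Car1 described above. Slc26a3, the chloride-bicarbonate exchanger DRA, had 62.9, 16.9 and 49.6 FPKM in the ileum and 314, 214, 151 and 229 FPKM in the colon (log2 difference -2.53, SE 0.495, adjusted p = 0.015). Hsd11b2, which protects the mineralocorticoid receptor from glucocorticoids, had 16, 31.1 and 11.7 FPKM in the ileum and 348, 265, 89.3 and 98.8 FPKM in the colon (log2 difference -3.19, SE 0.57, adjusted p = 0.00978). Best2, a bicarbonate channel of colonic goblet cells, had 0.0719, 0 and 0.0147 FPKM in the ileum and 43.7, 20.6, 6.03 and 5.16 FPKM in the colon (log2 difference -4.69, SE 0.681, adjusted p = 0.00319), and Atp12a, the colonic proton-potassium pump, had 0.0566, 0.0554 and 0.0347 FPKM and 129, 13.7, 3.29 and 6.24 FPKM (log2 difference -4.75, SE 0.998, adjusted p = 0.0213). Colon library 1 was the highest for both of these genes. Car2, another carbonic anhydrase, was lower as well (-3.41, adjusted p = 0.00401).

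Of the subunits of the epithelial sodium channel, Scnn1a was lower (log2 difference -2.68, SE 0.533, adjusted p = 0.0164), at 4.87, 7.94 and 4.31 FPKM in the ileum and 83.8, 44.7, 15.5 and 35.7 FPKM in the colon. Scnn1b had 0.017, 0 and 0.0105 FPKM in the ileum and 6.54, 0.0173, 1.92 and 3.66 FPKM in the colon and did not pass (adjusted p = 0.169), with colon library 2 near the ileum. The sodium-proton exchanger Slc9a3 (log2 difference -2.86, adjusted p = 0.0864) and the carbonic anhydrase Car4 (-1.16, adjusted p = 0.529) did not pass either. With the library number as a block, the call of Scnn1a was lost (adjusted p = 0.0539), and Scnn1b (adjusted p = 0.0113) and Slc9a3 (adjusted p = 0.0282) passed. That fit leaves out colon library 2, the one near the ileum for Scnn1b. The block and the missing library cannot be told apart there. With 1 library fewer, significance was lost for Scnn1a without ileum 1 or 4 or colon 2 (adjusted p = 0.0534 to 0.0756) and for Atp12a without ileum 1, 3 or 4 or colon 2 (adjusted p = 0.0545 to 0.0774).

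Of 12 genes of short-chain fatty acid and ketone metabolism, 2 were lower in the ileum and none higher (median -0.62). Slc16a1, the monocarboxylate transporter MCT1 that takes up butyrate, had 14.7, 9.83 and 16.6 FPKM in the ileum and 54.9, 69.7, 44.5 and 60.8 FPKM in the colon (log2 difference -2.04, SE 0.342, adjusted p = 0.00713). The tissues did not overlap for it. The lactate exporter Slc16a3 (log2 difference 2.58, adjusted p = 0.062) and the short-chain fatty acid receptor Ffar2 (-1.62, adjusted p = 0.0635) did not overlap between the tissues but did not pass. Of all genes tested, 8.59% lay above the colon range and 5.74% below it.

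Among 24 transcription factors of gut segments, 4 were higher and 2 lower in the ileum (median 0.16). Gata5, a GATA factor of the small intestine, had 41.2, 95.5 and 35 FPKM in the ileum and 1.61, 0.709, 1.11 and 0.594 FPKM in the colon (log2 difference 5.16, SE 0.439, adjusted p = 0.000267). Maf, a leucine zipper factor, had 206, 52.3 and 127 FPKM in the ileum and 6.99, 5.11, 16.6 and 9.1 FPKM in the colon (log2 difference 3.61, SE 0.538, adjusted p = 0.00372). Creb3l3, a driver of lipid genes, had 66.4, 212 and 53.9 FPKM in the ileum and 9.74, 1.78, 5.41 and 4.03 FPKM in the colon (log2 difference 4.20, SE 0.605, adjusted p = 0.00316). Hnf4g, a paralog of Hnf4a, had 52.6, 16.5 and 75.9 FPKM in the ileum and 2.91, 4.19, 6.42 and 15 FPKM in the colon (log2 difference 2.67, SE 0.632, adjusted p = 0.0377). The related genes gave other values: Hnf4a was at 170.2, 150 and 259 FPKM in the ileum and 158, 119, 39.8 and 136 FPKM in the colon (adjusted p = 0.527), and the log2 difference was 2.12 for Gata4 (adjusted p = 0.247) and 0.51 for Gata6 (adjusted p = 0.742). Gata4 had 0.968, 24.3 and 5.16 FPKM in the ileum and 0.557, 0.431, 2.11 and 0.835 FPKM in the colon, highest in ileum library 3 and with overlap. Sox9, a factor of crypt cells, was lower (log2 difference -1.71, SE 0.413, adjusted p = 0.042), as was the fatty acid receptor Pparg (log2 difference -1.98, SE 0.465, adjusted p = 0.0366). The call was lost for Hnf4g without ileum 1 or 4 or colon 1, 2 or 3 (adjusted p = 0.0761 to 0.157), for Sox9 without ileum 1 or 4 or colon 1, 2 or 3 (adjusted p = 0.0857 to 0.199) and for Pparg without ileum 1, 3 or 4 or colon 1, 2 or 4 (adjusted p = 0.0725 to 0.131), and for Sox9 also with the library number as a block (adjusted p = 0.0745).

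Cdx2, whose name the transgene carries, was at 177, 240.1 and 165 FPKM in the ileum and 159.8, 228, 87.7 and 138 FPKM in the colon and did not pass (log2 difference 0.40, SE 0.405, adjusted p = 0.865). The tissues overlapped.

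Most of the Hox genes that differed were lower in the ileum. Of 39 Hox genes in the tables, 26 reached the level needed for the test, and of these 9 were lower and 2 higher in the ileum (median -1.05). Of the HoxA cluster, Hoxa2, Hoxa3, Hoxa6, Hoxa7, Hoxa9, Hoxa10, Hoxa11 and Hoxa13 were all lower in the ileum. Hoxa10 had 0.0859, 0.736 and 0.0396 FPKM in the ileum and 26.5, 33.2, 11 and 19 FPKM in the colon (log2 difference -4.86, SE 0.475, adjusted p = 0.000394), and Hoxa13, at the posterior end of the cluster, had 0, 0.093 and 0.0699 FPKM and 6.7, 13.6, 2.45 and 10.3 FPKM (log2 difference -3.77, SE 0.537, adjusted p = 0.00302). Hoxa3 had 0.852, 0.888 and 0.857 FPKM in the ileum and 5.83, 6.42, 3.14 and 6.28 FPKM in the colon (log2 difference -2.07, SE 0.373, adjusted p = 0.0102). The differences of the other 5 were -2.01 for Hoxa2, -2.03 for Hoxa6, -3.11 for Hoxa7, -3.39 for Hoxa9 and -3.82 for Hoxa11, with adjusted p from 0.00258 to 0.0361. Hoxa4 (-0.68, adjusted p = 0.519) and Hoxa5 (-1.62, adjusted p = 0.145) did not pass.

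Of the HoxB cluster 1 gene passed. Hoxb13 had the difference of -7.41 given above, and Hoxb9 had 18.8, 18.3 and 10.1 FPKM in the ileum and 29.6, 24.9, 42.8 and 33.1 FPKM in the colon and did not pass (log2 difference -1.06, adjusted p = 0.167). The 7 tested genes from Hoxb2 to Hoxb8 had differences between -0.44 and 0.23, with adjusted p of at least 0.936. The sign changed under alternatives for Hoxb2, Hoxb4, Hoxb6, Hoxb7 and Hoxb8, among them the values without rescaling for Hoxb2 and Hoxb7, so no direction is given for them. The HoxC cluster held the 2 genes that were higher in the ileum. Hoxc6 had 10.2, 3.44 and 3.76 FPKM in the ileum and 0.586, 0.062, 0.915 and 0.407 FPKM in the colon (log2 difference 2.58, SE 0.504, adjusted p = 0.015), and Hoxc8 had 15.7, 8.25 and 5.38 FPKM and 0.423, 0.119, 2.62 and 0.168 FPKM (log2 difference 3.17, SE 0.62, adjusted p = 0.015). Of the HoxD cluster none of the genes tested passed, and Hoxd13 had 0, 0 and 0.0114 FPKM in the ileum and 11.3, 2.04, 0.129 and 0.506 FPKM in the colon (log2 difference -2.05, adjusted p = 0.31). Hoxd10, Hoxd11 and Hoxd12 were too low for the test, and their libraries did not overlap, with at most 0.0257 FPKM in the ileum for Hoxd10 and 0 FPKM for Hoxd11 and Hoxd12. Of the genes tested, 5.74% lay below the colon range. That share does not cover genes too low for the test. Nothing is concluded from the lack of overlap for Hoxd10, Hoxd11 and Hoxd12. With the library number as a block, the call of Hoxa6 was lost (adjusted p = 0.06). Leaving out 1 library ended the call for Hoxa2 without ileum 1, 3 or 4 or colon 1, 2 or 4 (adjusted p = 0.063 to 0.105), for Hoxa6 without ileum 1, 3 or 4 or colon 1, 2 or 4 (adjusted p = 0.0736 to 0.126), for Hoxc6 without ileum 1 (adjusted p = 0.0813) and for Hoxc8 without ileum 1 (adjusted p = 0.0833).

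**Figure D3:**
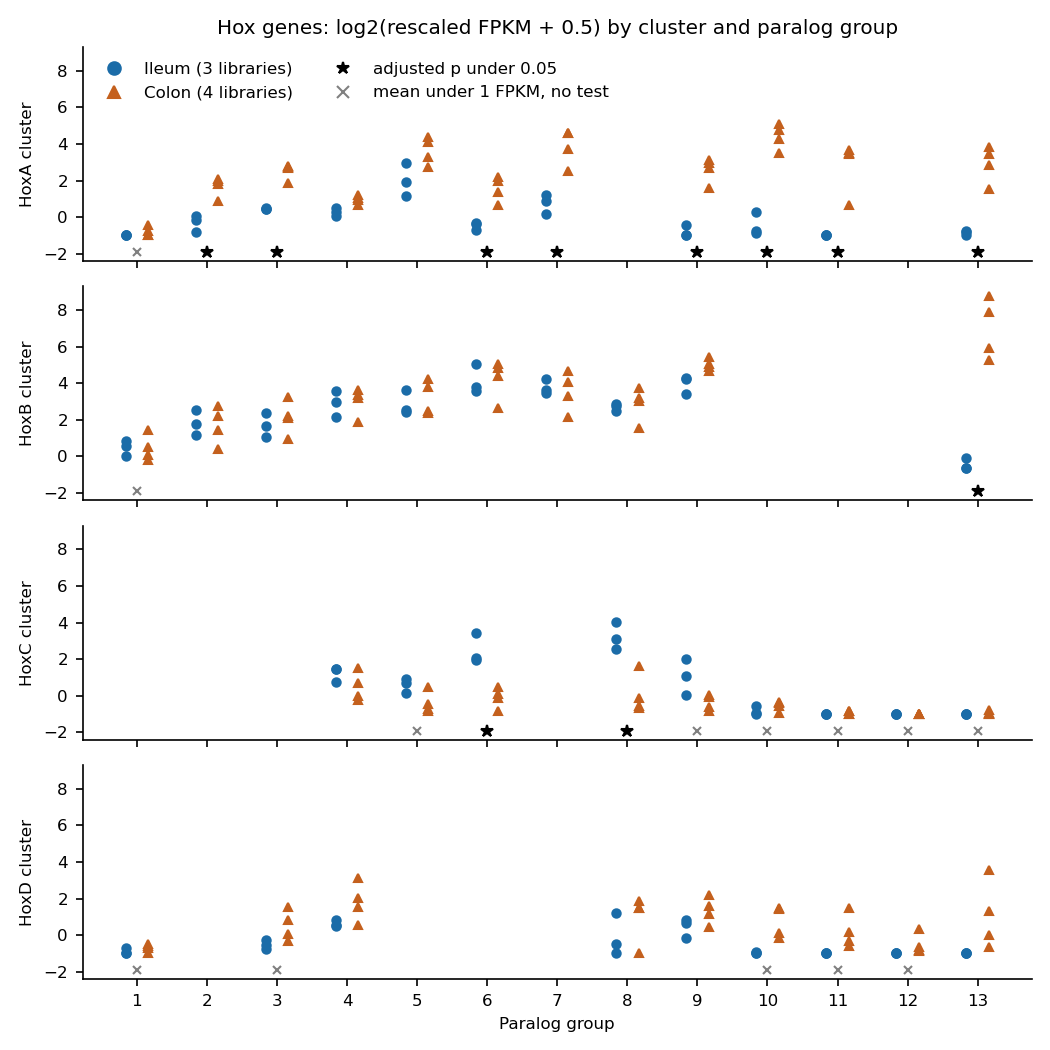
Levels of the Hox genes (y axis, log2(rescaled FPKM + 0.5)) by cluster (panels) and paralog group (x axis), with the 3 ileum libraries as circles left of the 4 colon libraries as triangles. Stars mark an adjusted p under 0.05 and crosses genes below the level tested. The ileum lies below the colon for the 8 starred HoxA genes and Hoxb13 and above it for Hoxc6 and Hoxc8, and Hoxb2 to Hoxb8 overlap.

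Paneth cell genes were at far higher levels in the ileum. Of 17 genes tested, 10 were higher and none lower (median 6.03), and 15 of the differences were above 0. A member passed as lower in the ileum under several alternatives. Without rescaling 10 were higher and 1 lower, and with the library number as a block 12 were higher and 1 lower. Lyz1, Paneth cell lysozyme, had 576, 2304 and 11516 FPKM in the ileum and 15.9, 64.1, 256 and 47.5 FPKM in the colon (log2 difference 5.37, SE 1.07, adjusted p = 0.0165). Itln1, an intelectin, had 283, 2944 and 3528 FPKM in the ileum and 8.32, 41.5, 168 and 17.1 FPKM in the colon (log2 difference 5.47, SE 1.09, adjusted p = 0.0169). Ileum library 1 was the lowest of the ileum for both and colon library 3 the highest of the colon. Defa26, an alpha-defensin, had 71, 375 and 659 FPKM in the ileum and 0.271, 1.38, 24.5 and 2.7 FPKM in the colon (log2 difference 6.31, SE 1.11, adjusted p = 0.00931). Defa21 (6.48, adjusted p = 0.0182), Defa3 (6.28, adjusted p = 0.0175) and Defa22 (6.59, adjusted p = 0.0235) ran the same way, as did Gm15284, Gm14850, Gm15315, Gm15308 and Defa-rs7 of the 12 largest differences. These genes are near copies of each other on chromosome 8, so reads may have been split among them, and the value of a single one is uncertain.

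The count for Paneth cell genes changed when single libraries were left out. It was 1 of 17 without ileum library 3, 2 of 16 without ileum library 4 and 6 of 17 without colon library 2, and 1 of 19 when genes of any level were tested. Without ileum library 1 it was 13. The medians in these fits lay between 5.05 and 7.25, and the call of Defa26 held in all 21 alternatives. For single genes the call was lost for Lyz1 without ileum 3 (adjusted p = 0.0517), for Itln1 without ileum 3 or 4 (adjusted p = 0.0602 to 0.0671), for Defa3 without ileum 3 or 4 (adjusted p = 0.0615 to 0.0652), for Defa21 without ileum 3 or 4 (adjusted p = 0.0643 to 0.0709) and for Defa22 without ileum 3 or 4 or colon 2 (adjusted p = 0.0527 to 0.0832), and for Gm15284 without ileum 3 or 4 or colon 2 (adjusted p = 0.0553 to 0.0935), for Gm14850 without ileum 3 (adjusted p = 0.0549), for Gm15315 without ileum 3 or 4 (adjusted p = 0.0687 to 0.0787), for Gm15308 without ileum 3 or 4 or colon 2 or 4 (adjusted p = 0.0711 to 0.14) and for Defa-rs7 without ileum 3 or 4 or colon 1, 2, 3 or 4 (adjusted p = 0.0535 to 0.13).

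Of the Reg3 lectins, antibacterial proteins of enterocytes and Paneth cells, Reg3a, Reg3b and Reg3g were higher in the ileum. Reg3d was not among the genes that passed. Reg3b had 56505, 44844 and 50839.6 FPKM in the ileum and 741, 348, 2796 and 1181 FPKM in the colon (log2 difference 5.72, SE 0.662, adjusted p = 0.00103), and Reg3g had 27475, 14367 and 21289 FPKM and 184, 96.5, 359.8 and 333 FPKM (log2 difference 6.56, SE 0.539, adjusted p = 0.000245). Every ileum library exceeded every colon library for both. Reg3a (log2 difference 5.06, SE 0.916, adjusted p = 0.0105), the nitric oxide synthase Nos2 (log2 difference 4.96, SE 0.647, adjusted p = 0.00214) and Duoxa2, a maturation factor of the dual oxidase (log2 difference 2.96, SE 0.535, adjusted p = 0.0103), were higher too. These were the 5 that passed of 20 genes of Reg lectins and mucosal defence, whose median was -0.03. Retnlb, a goblet cell resistin-like protein, had 305, 3.61 and 4.27 FPKM in the ileum and 1859, 711, 127 and 273 FPKM in the colon (adjusted p = 0.115), and passed as lower with the library number as a block (adjusted p = 0.00961).

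None of 15 goblet cell genes passed, in either direction (median -1.08). With all 15 libraries in 1 fit 7 of them were lower in the ileum, and with the GC and length trend removed 3 were. Muc2, the gel-forming mucin, had 530.2, 356 and 184 FPKM in the ileum and 892, 1295, 607 and 1403 FPKM in the colon (log2 difference -1.61, SE 0.488, adjusted p = 0.105), and Atoh1 and Spdef, factors of the secretory lineage, had differences of -1.21 (adjusted p = 0.12) and -1.35 (adjusted p = 0.154). For all 3 genes every ileum library lay below every colon library, as it did for 5.74% of all genes tested. Of 3 membrane mucins, Muc1 was lower in the ileum (log2 difference -3.18, SE 0.449, adjusted p = 0.00292), and Muc4 (log2 difference -1.85, adjusted p = 0.117) passed only with the library number as a block (adjusted p = 0.0399).

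A few hormone genes differed between the tissues. Of 17 enteroendocrine genes, 2 were higher and 1 lower in the ileum (median -0.39). Gip, the incretin of proximal K cells, had 10.1, 143 and 14.3 FPKM in the ileum and 0.34, 0.479, 0.653 and 0.315 FPKM in the colon (log2 difference 4.91, SE 0.78, adjusted p = 0.00531), and ileum library 3 was the highest. With voom on recovered reads, chosen after seeing the data, Gip did not pass (adjusted p = 0.0635). Ghrl, ghrelin, had 2.01, 6.09 and 8.93 FPKM in the ileum and 1.56, 0.721, 0 and 0 FPKM in the colon (log2 difference 2.60, SE 0.651, adjusted p = 0.0492). The lower gene was Insl5. Tph1, which makes serotonin (-2.08, adjusted p = 0.101), and Chgb, a granin of endocrine granules (-2.25, adjusted p = 0.154), passed as lower only with the library number as a block (adjusted p = 0.0276 and 0.0247), where Ghrl did not (adjusted p = 0.0969). With 1 library fewer, significance was lost for Ghrl without ileum 3 or 4 or colon 2, 3 or 4 (adjusted p = 0.0888 to 0.187).

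None of 10 tuft cell genes and none of 19 cell cycle genes passed, with medians of -0.40 and 0.05. With all 15 libraries in 1 fit 1 tuft cell gene was higher and 2 were lower. Of 12 stem cell and Wnt genes 1 passed, beside 5.53% of all genes tested. Axin2, a target of Wnt signalling, was higher in the ileum, at 14.9, 15.9 and 24.6 FPKM, against 5.51, 6.96, 2.14 and 5.96 FPKM in the colon (log2 difference 1.81, SE 0.432, adjusted p = 0.0386). The call was lost for Axin2 without ileum 1, 3 or 4 or colon 1, 2, 3 or 4 (adjusted p = 0.0524 to 0.15). Prom1, a surface protein of crypt cells, did not pass (log2 difference -2.16, SE 0.585, adjusted p = 0.0681), and passed as lower with the library number as a block (adjusted p = 0.0438).

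Most T cell genes were higher in the ileum. Of 15 genes of T cells and intraepithelial lymphocytes, 13 were higher and none lower (median 2.53). Cd8a, the CD8 chain of intraepithelial lymphocytes, had 9.53, 11.9 and 10.7 FPKM in the ileum and 0.858, 1.19, 1.01 and 2.24 FPKM in the colon (log2 difference 2.67, SE 0.37, adjusted p = 0.00263). Cd3g, of the T cell receptor complex, had 21.6, 17.9 and 20.3 FPKM in the ileum and 1.8, 3.93, 3.81 and 4.01 FPKM in the colon (log2 difference 2.44, SE 0.36, adjusted p = 0.00348), and the cytotoxic granule protein Gzmb had 43.7, 31.8 and 67.3 FPKM and 0.384, 1.95, 4.94 and 7.14 FPKM (log2 difference 3.90, SE 0.682, adjusted p = 0.00898). No colon library reached the lowest ileum library for these genes. Cd7 (3.04, adjusted p = 0.00232), Nkg7 (3.13, adjusted p = 0.00426) and Cd3e (2.82, adjusted p = 0.00614) were higher as well. The count was 9 to 13 of 15 when 1 library was left out.

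All 6 genes of MHC class II presentation that were tested were higher in the ileum, with differences between 3.19 and 3.62 (median 3.52). H2-Aa, an alpha chain, had 1214, 1444 and 1099 FPKM in the ileum and 72.2, 184, 115 and 97.4 FPKM in the colon (log2 difference 3.49, SE 0.405, adjusted p = 0.00104), and Cd74, the invariant chain, had 3278, 6537 and 2419 FPKM and 237, 578, 275 and 222 FPKM (log2 difference 3.62, SE 0.504, adjusted p = 0.00268). The remaining 4, H2-Ab1, H2-Eb1, H2-DMa and H2-DMb1, had adjusted p from 0.00106 to 0.00528. Without colon libraries 1 and 3 the count was 4 of 6, and H2-Ab1 (adjusted p = 0.0547) and H2-Eb1 (adjusted p = 0.0683) did not pass. These transcripts are made by enterocytes as well as by immune cells. In the list of 10 myeloid genes, which includes phagocyte markers, 1 gene, Itgax, was higher (log2 difference 1.87, SE 0.419, adjusted p = 0.0292), and the list median was 0.87. Among all genes tested, 3.79% were higher.

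Fewer of the B cell genes passed. Of 12, 5 were higher and none lower (median 1.79), namely Blk, Faim3, Cd79a, Pou2af1 and Cd79b, with differences between 1.81 and 2.24 and adjusted p from 0.015 to 0.0476. Cd79a, of the B cell receptor, had 97.1, 112 and 47.9 FPKM in the ileum and 21.5, 28.6, 15.6 and 8 FPKM in the colon. Without ileum library 1 none of the 9 then tested passed, without colon library 3 or 4 there were 2 of 12, and without ileum library 4 there were 3 of 10. For Itgax and the B cell genes the call was lost for Itgax without ileum 1, 3 or 4 or colon 1 or 2 (adjusted p = 0.0621 to 0.123), for Blk without ileum 1 (adjusted p = 0.0876), for Faim3 without ileum 1 or 3 (adjusted p = 0.0614 to 0.109), for Cd79a without ileum 1 or 3 or colon 3 or 4 (adjusted p = 0.0548 to 0.12), for Pou2af1 without ileum 1 or 4 or colon 1, 3 or 4 (adjusted p = 0.058 to 0.147) and for Cd79b without ileum 1, 3 or 4 or colon 1, 3 or 4 (adjusted p = 0.0752 to 0.209).

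The labels name epithelium, and epithelial markers were high in both tissues. Epcam had 2046, 849 and 1580.5 FPKM in the ileum and 709, 1193, 599 and 1024 FPKM in the colon (adjusted p = 0.613), and the keratin gene Krt20 2267, 995 and 1687 FPKM and 531, 534, 345 and 819.8 FPKM (adjusted p = 0.0922). Of 10 such markers, Vil1, villin of the microvillus core, was higher in the ileum (log2 difference 2.45, SE 0.449, adjusted p = 0.0111), and 9 did not pass. Among all genes tested, 3.79% were higher. Without ileum library 1 the call of Vil1 was lost (adjusted p = 0.0503). Smooth muscle was also present: Acta2 had 537, 183 and 164 FPKM in the ileum and 949, 760.5, 85.7 and 279 FPKM in the colon, and Myh11 had 228, 10.6 and 79.3 FPKM and 209, 144, 19.9 and 172 FPKM. None of 10 smooth muscle, 10 fibroblast, 7 endothelial and 7 enteric neuron and glia genes passed, and the summed smooth muscle level ran from 936 to 3622 FPKM in the ileum and from 672 to 7571 FPKM in the colon. Among 21 pancreatic acinar genes none passed. Cela2a, a pancreatic elastase, had 1.12, 233 and 1.08 FPKM in the ileum and 5.99, 61.1, 25914 and 0.896 FPKM in the colon, and trypsinogen Prss2 had 0.271, 55.7 and 0.998 FPKM and 3.17, 27.5, 7666 and 0.485 FPKM. Ileum library 3 was the highest of the ileum for both. Cela1 (log2 difference -5.39, adjusted p = 0.0829) passed as lower only with the library number as a block (adjusted p = 0.0056). The part of muscle or acinar tissue in the results was not tested. Without ileum library 3 and colon library 3 together, 729 genes passed, 453 higher and 276 lower in the ileum, and 110 of the 120 called genes with values in the text kept their call.

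**Figure D4:**
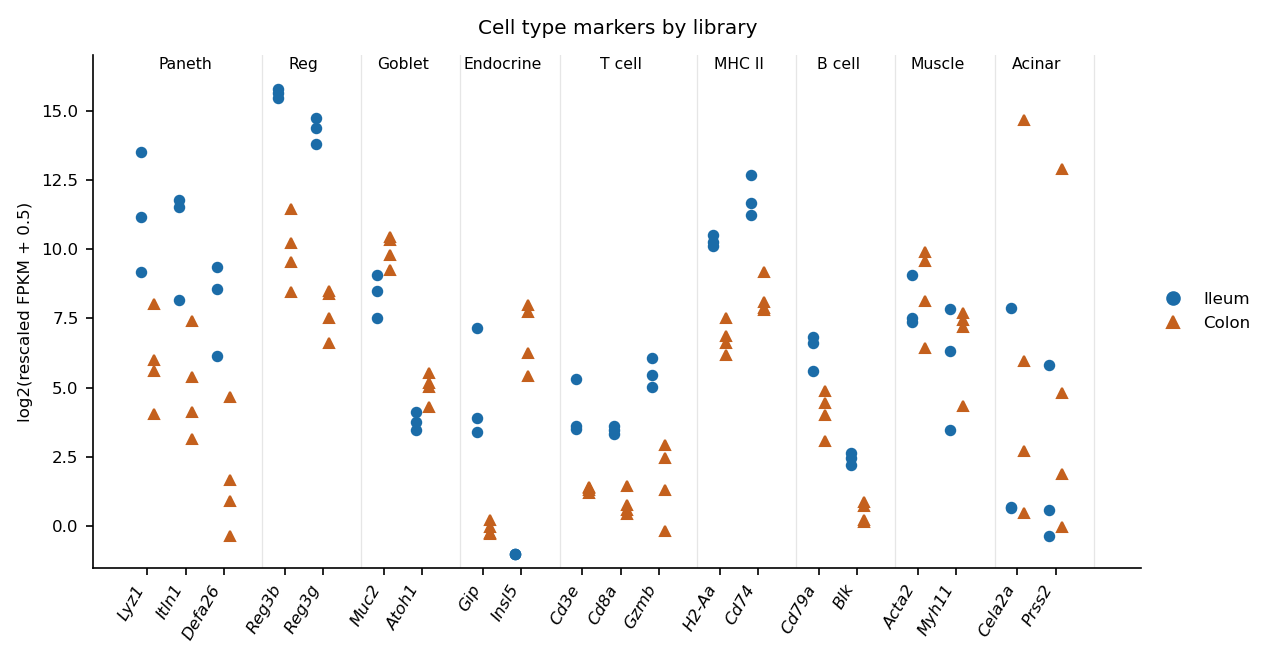
Levels of markers of cell types and segments (y axis, log2(rescaled FPKM + 0.5)) in the 3 ileum libraries (circles) and the 4 colon libraries (triangles). Paneth, Reg, T cell and MHC class II genes lie higher in the ileum without overlap. Muc2 and Atoh1 lie lower in every ileum library without passing the test, muscle genes overlap, and 1 colon library stands out for Cela2a and Prss2 at 25914 and 7666 FPKM.

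Vitamin D acts on calcium entry through Trpv6, an apical calcium channel, and on its transfer through the cell by S100g, calbindin-D9k. Of 8 genes of calcium and vitamin D tested, 3 were lower in the ileum and none higher (median -1.09). Trpv6 (chr6:41570620-41586404, mm9) had 1.75, 2.39 and 0.114 FPKM in the ileum and 353, 123, 211 and 69.4 FPKM in the colon (log2 difference -6.65, SE 0.663, adjusted p = 0.000437). The highest ileum library was far below the lowest colon library, where the choice of the gene required no overlap. S100g, at 5891, 4143 and 491 FPKM in the ileum and 5346, 1794, 24346 and 2928 FPKM in the colon, was high in both tissues and did not pass (log2 difference -1.16, SE 1.04, adjusted p = 0.817). Slc37a2, a sugar phosphate exchanger and a gene of the qRT-PCR panel in the labels' protocols, had 1.55, 1.25 and 0.801 FPKM in the ileum and 153, 21.4, 10.8 and 7.65 FPKM in the colon (log2 difference -3.82, SE 0.865, adjusted p = 0.0306), and Stc2, a stanniocalcin, was lower too (log2 difference -1.95, SE 0.439, adjusted p = 0.0302). The manganese exporter Slc30a10 had 51.5, 5.72 and 17 FPKM in the ileum and 35.8, 28.2, 31 and 51.4 FPKM in the colon and did not pass (log2 difference -1.02, SE 0.626, adjusted p = 0.589).

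Cyp24a1, which degrades vitamin D hormone, and Trpv5, the renal calcium channel, were below the level tested across genes. Cyp24a1 averaged 0.245 ± 0.267 FPKM in the ileum and 0.34 ± 0.501 FPKM in the colon (SD, n = 3 and 4, exact two-sided permutation test, p = 0.857). Trpv5 was listed at 0 in all 3 ileum libraries and had 0.234, 0.018, 0.326 and 0.0675 FPKM in the colon (exact two-sided permutation test over 3 and 4 libraries, p = 0.171). The smallest p that 35 arrangements allow is 0.0286. Mouse Vdr was listed at 25.7, 24.5 and 27 FPKM in the ileum and 31.9, 17.9, 11.4 and 30.4 FPKM in the colon (adjusted p = 0.964), although the animals lack endogenous VDR per the labels. A value per gene does not show which part of the gene the reads came from, so Vdr checks neither the deletion nor the transgene. Leaving out 1 library ended the call for Slc37a2 without ileum 1, 3 or 4 or colon 2 (adjusted p = 0.0733 to 0.0932) and for Stc2 without ileum 1 or 4 or colon 2 or 4 (adjusted p = 0.0707 to 0.15), and for Stc2 also with the library number as a block (adjusted p = 0.056).

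Whether the tissue difference was the same in KO mice was tested by subtracting the difference in KO libraries from that in uninjected transgenic libraries, in 1 limma fit of 15 libraries rescaled together. That VDR was removed from the KO epithelium rests on the labels. Of 12335 genes, 1 passed (0.00811%), and this gene was Trpv6. An unadjusted p under 0.05 was found for 149 genes, a smaller share than the 0.05 that chance alone gives. The test may thus miss differences. A gene that did not pass is not shown to have the same tissue difference in both groups. In that scaling Trpv6 had 1.73, 2.37 and 0.113 FPKM in the uninjected transgenic ileum and 345, 121, 213 and 68.9 FPKM in the uninjected transgenic colon. In KO mice it had 0.108 to 0.174 FPKM in the ileum and 0.0826 to 0.633 FPKM in the colon. The difference of differences was -6.29 (SE 0.726, adjusted p = 0.00403). It held without any 1 of the 15 libraries, between -6.72 and -5.60 with adjusted p from 0.00108 to 0.0178, and was -6.62 with an adjusted p of 0.153 at a pseudocount of 0.1. S100g, Slc37a2, Slc30a10 and Vdr did not pass (adjusted p = 1 for each). S100g was high in both transgenic tissues, at 488 to 5837 FPKM in the ileum and 1764 to 24606 FPKM in the colon, against 21.4 to 32.7 FPKM in the KO ileum and 41.9 to 90.7 FPKM in the KO colon. Slc37a2 was low in both ileum groups, at 0.796 to 1.53 FPKM in the transgenic and 0.697 to 4.96 FPKM in the KO mice, and reached 30 to 45.1 FPKM in the KO colon. Vdr was listed at 20.9 to 22.9 FPKM in the KO ileum and 18.8 to 21.3 FPKM in the KO colon. In the transgenic mice it was at 24.3 to 26.8 FPKM and 11.5 to 31.2 FPKM. These values do not check the deletion. KO and transgenic mice also differ in sex, age and the way VDR was lost, and these cannot be told apart.

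**Figure D5:**
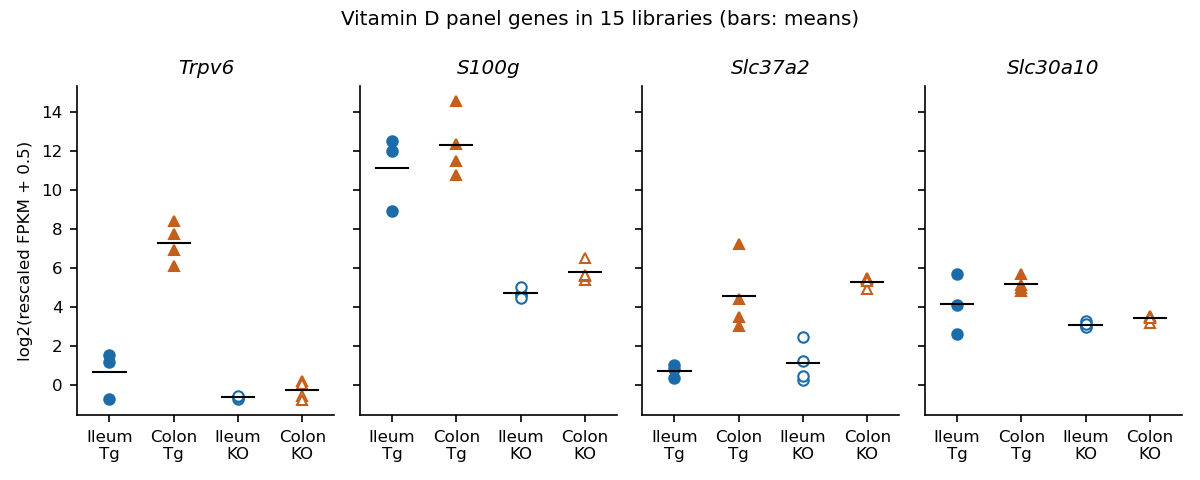
Levels of 4 genes of the qRT-PCR panel in the labels' protocols (y axis, log2(rescaled FPKM + 0.5)) in the ileum and colon of uninjected transgenic mice (Tg, filled, 3 and 4 libraries) and of KO mice (open, 4 and 4 libraries), with group means as bars. Trpv6 is at 68.9 FPKM or more in the transgenic colon and at most 2.37 FPKM in the other groups, S100g is at 488 FPKM or more in both transgenic tissues, and Slc37a2 is low in the ileum of both genotypes.

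The remaining genes with a tissue difference were set beside the KO libraries alone, which share no library with the transgenic ones. In the 8 KO libraries 4027 of 12224 genes passed (32.9%), 2019 higher and 2008 lower in the ileum. Of the 470 genes higher in the transgenic ileum, 458 were also higher in the KO ileum, which is 97.4% of the first list and 22.7% of the second. Of the 215 lower genes, 209 were lower in both, which is 97.2% and 10.4%. None passed in opposite directions. Why more genes passed in the KO libraries was not tested.

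A phosphate carrier was higher and another lower in the ileum. Of 19 genes of phosphate, iron and other metals, 2 were higher and 1 lower in the ileum (median -0.09). Slc34a2, the apical sodium-phosphate cotransporter of the ileum, had 96.9, 335 and 143 FPKM in the ileum and 14.6, 18.5, 18.3 and 16.2 FPKM in the colon (log2 difference 3.27, SE 0.438, adjusted p = 0.00231). Slc20a1, the phosphate transporter PiT-1, had 5.35, 3.77 and 5.99 FPKM in the ileum and 82.6, 18.7, 13.5 and 56.7 FPKM in the colon (log2 difference -2.62, SE 0.608, adjusted p = 0.0347). Slc39a14, a carrier of zinc, iron and manganese, was higher (log2 difference 1.38, SE 0.331, adjusted p = 0.0398). Of 16 claudins and tight junction genes 1 passed, beside 5.53% of all genes tested, so the count says little of the list. It was Cldn8, a barrier claudin of the distal gut, lower in the ileum, at 0.392, 0.24 and 1.95 FPKM, against 5.01, 19.6, 18.1 and 24.7 FPKM in the colon (log2 difference -3.69, SE 0.609, adjusted p = 0.00664). Cldn4 did not pass (log2 difference 1.51, adjusted p = 0.0853). With the library number as a block the call of Slc39a14 was lost (adjusted p = 0.107). With 1 library fewer, significance was lost for Slc39a14 without ileum 1, 3 or 4 or colon 1, 2, 3 or 4 (adjusted p = 0.0531 to 0.159) and for Slc20a1 without ileum 1, 3 or 4 or colon 1 or 4 (adjusted p = 0.06 to 0.112).

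Among 34 cytochromes P450 and other enzymes of foreign compounds, 2 were higher and 5 lower in the ileum (median 0.25). Cyp2c55, a P450 abundant in the mouse colon, had 22.1, 12.8 and 10.1 FPKM in the ileum and 980.3, 322, 734 and 1506 FPKM in the colon (log2 difference -5.71, SE 0.54, adjusted p = 0.000367). The esterases Ces1g (-3.45, adjusted p = 0.00938), Ces1d (-2.06, adjusted p = 0.00923) and Aadac (-2.95, adjusted p = 0.00412) were lower. Ces2e, another carboxylesterase, was higher, at 507, 554 and 389 FPKM in the ileum and 198, 103, 121 and 135 FPKM in the colon (log2 difference 1.82, SE 0.37, adjusted p = 0.0182), as was Cyp4f14 (log2 difference 2.69, SE 0.504, adjusted p = 0.012). The members of the carboxylesterase family thus went in both directions. None of 19 genes of cholesterol synthesis passed (median 0.44), and 3 were higher with all 15 libraries in 1 fit. The call was lost for Cyp4f14 without ileum 3 (adjusted p = 0.0504) and for Ces2e without ileum 1 or colon 2 (adjusted p = 0.0782 to 0.0904), and for Ces2e also with the library number as a block (adjusted p = 0.0685).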

How the data were processed

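Polyadenylated transcripts of intestinal epithelium had been sequenced and expressed per gene as FPKM, which the authors deposited in separate tables for the ileum and the colon. Per the labels' protocols, CLC Genomics Workbench mapped the reads to the mouse genome. How FPKM was computed is not given in the sources used here. The submitters' processing notes also name kallisto 0.45.0, DESeq 1.14.0, DESeq2 and mm9, without a role. The tables hold 25 symbols written as dates.

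The tables were joined by symbol (21441 genes) and libraries were rescaled by the median of ratios. Genes with a mean of at least 1 rescaled FPKM were tested on log2(FPKM + 0.5) with limma 3.58.1 (trend, Benjamini-Hochberg over all genes, threshold 0.05) in R 4.3.3. Cyp24a1 and Trpv5, panel genes below that level, were tested by an exact permutation test over libraries, and other genes below it were not tested. Tables and figures used Python 3.11.15, numpy 2.4.6, pandas 2.3.3 and matplotlib 3.10.9. The ileum minus colon fit was tested on simulated data, with 200 changed genes among 12389 and 10 draws. When levels were changed by a factor of 2, the fit called 0.4% of the changed genes. The share rose to 38.2% for a factor of 4 and to 85% for a factor of 8, and was 0% for a factor of 1.5. False calls numbered at most 8. The simulation changed fewer genes than the 685 called in the data, so these shares do not carry over exactly. Whole reads were recovered for 85.6% of 18544 genes within a tolerance of 0.01 of a whole number, and the sums are lower bounds of depth. Deviations from the group means correlated at 0.109, 0.201 and 0.753 in same-numbered libraries of the tissues and at -0.698 to 0.293 in differently numbered ones, among them 0.293 for ileum 3 with colon 1, 0.257 for ileum 3 with colon 2 and 0.219 for ileum 1 with colon 4. As every same-numbered value exceeded 0.1, values with the column number as a block are given where they change a call, although the numbers are not shown to mark the same animal. The libraries also differed in their trend with GC content. Per 10% GC, the log2 slope was -0.151, 0.812 and -0.448 in ileum libraries 1, 3 and 4. It was 0.59, 0.218, -0.421 and -0.601 in colon libraries 1 to 4. The part of this trend in the correlations was not tested. The block fit leaves out colon library 2, which has no ileum library of its number. A changed call may therefore come from the block or from the missing library.

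The members and the 34 gene lists (569 entries, 554 found, 6 of them by an older symbol, 15 not analysed here) were chosen with earlier results of these data known. Genes with values are the 12 largest differences in each direction among those without overlap and with a mean of at least 10 in the higher tissue, up to 6 of each list by smallest p, any member of 7 lists on position, transport and hormones, and the qRT-PCR panel of the labels' protocols with Vdr. Sis, Lct, Slc2a1, Acta2 and Myh11 were named after their values were seen. Values of some genes that meet the rule are not reported here. Gene coordinates came from GENCODE vM1 on mm9, and promoters from RefSeq on GRCm38.p6. Alternatives changed the pseudocount, level filter, rescaling, trend, block, libraries and correction for GC content and length. Leaving out ileum 3 with colon 3, and voom on recovered reads, were chosen after seeing the data.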

Additional observations from a re-analysis of the deposited data

Results flagged for a closer look

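In 8 of 163 genes with values, the 4 colon libraries held 1 that lay far from the other 3, where chance gives about 1 in 20 such groups. Colon library 3 did so for Abcg8, at 0.394 FPKM against 0 to 0.00582 FPKM in the others, for Hoxa3, at 3.14 FPKM against 5.83 to 6.42 FPKM, for Hoxa11, at 1.08 FPKM against 10.5 to 12.4 FPKM, and for Myh11, at 19.9 FPKM against 144 to 209 FPKM. This is the library with 134056 FPKM of acinar transcripts, whose part in these values was not tested. Colon library 2 stood apart for Cubn, at 0.101 FPKM against 1.12 to 1.38 FPKM, and for H2-Eb1, at 181 FPKM against 63.7 to 71.9 FPKM. Colon library 1 was low for Cd3g, at 1.8 FPKM against 3.81 to 4.01 FPKM, and colon library 4 for Lct, at 0.0475 FPKM against 0.273 to 0.289 FPKM.

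Trpv6 was the only gene that passed the test for a change of the tissue difference between uninjected transgenic and KO mice, at -6.29 (SE 0.726, adjusted p = 0.00403, limma over 12335 genes). All 4 transgenic colon libraries exceeded all 11 other libraries.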

How the results depend on the processing

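Of 120 called genes with values, 72 kept their call under all 21 alternatives and none changed direction. Calls were lost for 29 of them without colon libraries 1 and 3, 28 without a level filter, 17 with voom on recovered reads and 11 without rescaling. The count of 685 was 1697 (1025 higher, 672 lower) with all 15 libraries in 1 fit, 1218 with GC and length trends removed, 396 without colon libraries 1 and 3, and 428 to 642 without 1 library, lowest without ileum library 1 and 456 without colon library 2. It lay between 551 and 729 under the other alternatives. With the library number as a block, in the paired fit without colon library 2, 617 genes passed (421 higher, 196 lower), 555 of them among the 685. The cause of these shifts was not tested. For the difference between genotypes, 0 genes passed at a pseudocount of 0.1, where Trpv6 had -6.62 (adjusted p = 0.153), 2 at a pseudocount of 1, and 1 to 3 without 1 library (3 without ileum library 3, 2 without colon library 1). The Cyp24a1 difference of -0.0952 FPKM ran from -0.24 to 0.148 without 1 library, at 0.023 without ileum library 4. Among genes that did not pass, the sign changed without 1 library for Vdr (-0.02 to 0.47), Myh11 (-1.77 to 0.42), Cela2a (-5.27 to 0.02), Hoxb2 (-0.30 to 0.49), Hoxb4 (-0.48 to 0.28), Hoxb6 (-0.61 to 0.20), Hoxb7 (-0.23 to 0.58) and Hoxb8 (-0.63 to 0.08). Without ileum 3 and colon 3 it changed for Cdx2 (-0.00), Hoxb2 (-0.26), Hoxb4 (0.07) and Hoxb6 (0.25), without colon 1 and 3 for Hoxb4 (0.36), Hoxb6 (0.29) and Hoxb8 (0.02), without rescaling for Hoxb2 (-0.07) and Hoxb7 (-0.02), and with the block for Hoxb7 (-0.23). Library depth differed by several fold and limits the low genes.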
